A study of Saccharomyces cerevisiae with 72 samples.

Results

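Budding yeast that lacks the repressor Crt1 was set against yeast that lacks the kinase Dun1, by the change in messenger RNA that methyl methanesulfonate (MMS), an alkylating agent that damages DNA, caused in each strain. The crt1 and dun1 strains account for 8 of the 72 arrays of the series and 8 of the 52 arrays of the table used here, 4 arrays per strain, chosen by their strain labels. In both strains, which are deletions in the BY4741 background, a growing culture was split, one portion received MMS for 1 h and the other none, and poly(A)-enriched RNA of the 2 portions shared a 2-colour array. The labels give the MMS concentration as 0.03% in the growth text and 0.033% in the treatment text. Each strain has 2 replicates, and each replicate has 2 arrays with the dyes swapped. For orientation, values are also given for chk1dun1, a second strain without Dun1 that also lacks the kinase Chk1, and for wild type, with 4 arrays each. Nothing in the labels tells separate cultures or clones apart, so a p-value here reflects only how far replicates spread, pooled over 13 strains. That spread, estimated largely from strains other than crt1 and dun1, may be technical.

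Cells that meet DNA damage raise their supply of deoxyribonucleotides. The sensor kinase Mec1 activates Rad53, and Rad53 activates Dun1. Dun1 phosphorylates Crt1, the product of RFX1, which otherwise sits on the promoters of ribonucleotide reductase genes with the corepressor Tup1-Ssn6, and Crt1 then leaves the DNA. Dun1 also phosphorylates Sml1 and Dif1, proteins that restrain the enzyme itself. The crt1 strain thus lacks the repressor, and the dun1 strain lacks the kinase that takes it off.

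Every value is the log2 of MMS over untreated within one strain, called the response here, and a difference is the crt1 response minus the dun1 response. The arrays do not measure the untreated level of one strain against that of another. A gene was called where limma's adjusted p was under 0.05 over 5594 genes, in a fit of 13 strains with 2 replicate values each. The median 95% half-width of a difference was 0.279 log2 units. Values per array are given in the order replicate 1 with MMS in Cy5, replicate 1 with MMS in Cy3, replicate 2 with MMS in Cy5 and replicate 2 with MMS in Cy3.

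Replicate 2 needs a caveat in both strains, for its dye pair in crt1 and for 1 array in dun1. The 2 arrays of crt1 replicate 2 correlated at r = 0.223 over genes after turning, against 0.855 for crt1 replicate 1, with 0.791 for dun1 replicate 1 and 0.606 for dun1 replicate 2. Once its 2 arrays were averaged, crt1 replicate 2 correlated with crt1 replicate 1 at r = 0.855, against 0.824 between the dun1 replicates. The 2 arrays of wild-type replicate 1 also correlated weakly, at 0.221. One array, with MMS in Cy5 and labelled dun1 replicate 2, went against its label. DUN1 itself read 2.71 on it, and lay between -0.24 and -0.11 on the other 3 dun1 arrays. MEC1 read -2.34 on it, and between -0.75 and 0.30 on the other 51 arrays of the table. It is called the array in doubt, and the main counts and leading differences are given with and without it. Without it, dun1 replicate 2 rests on a single array, with MMS in Cy3, and its dye effect is not averaged out. Crt1 and dun1 arrays share no slide, so slide and strain cannot be told apart between them.

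The response to MMS was broad in both strains, and few genes were called between the 2 strains. In crt1 the response was called for 2831 genes (50.6%), 1495 higher (26.7%) and 1336 lower (23.9%), and in dun1 for 2232 genes (39.9%), 1220 higher (21.8%) and 1012 lower (18.1%). Without the array in doubt the dun1 response was called for 2301 genes (41.1%). Of 175 genes at least 2-fold higher with MMS in wild type, whose arrays enter the difference only through the shared estimate of spread, 168 were called higher in crt1 and 165 in dun1. The median response of those genes was 1.24 in crt1, 0.96 in dun1 and 1.35 in wild type. The difference itself was called for 39 genes (0.697%), of which 28 (0.501%) responded higher in crt1 and 11 (0.197%) lower, and 12 (0.215%) differed at least 2-fold. With no adjustment, 587 genes had a p under 0.05. Without the array in doubt 68 genes (1.22%) were called, 51 higher (0.912%) and 17 lower (0.304%). Scaling moved this split, to 15 higher and 16 lower after quantile normalization and to 4 higher and 7 lower with all arrays scaled to one spread. The crt1 replicate 2 arrays had SDs over probes of 0.743 and 0.551, against 0.388 to 0.505 on the other 6 arrays.

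**Figure D1:**
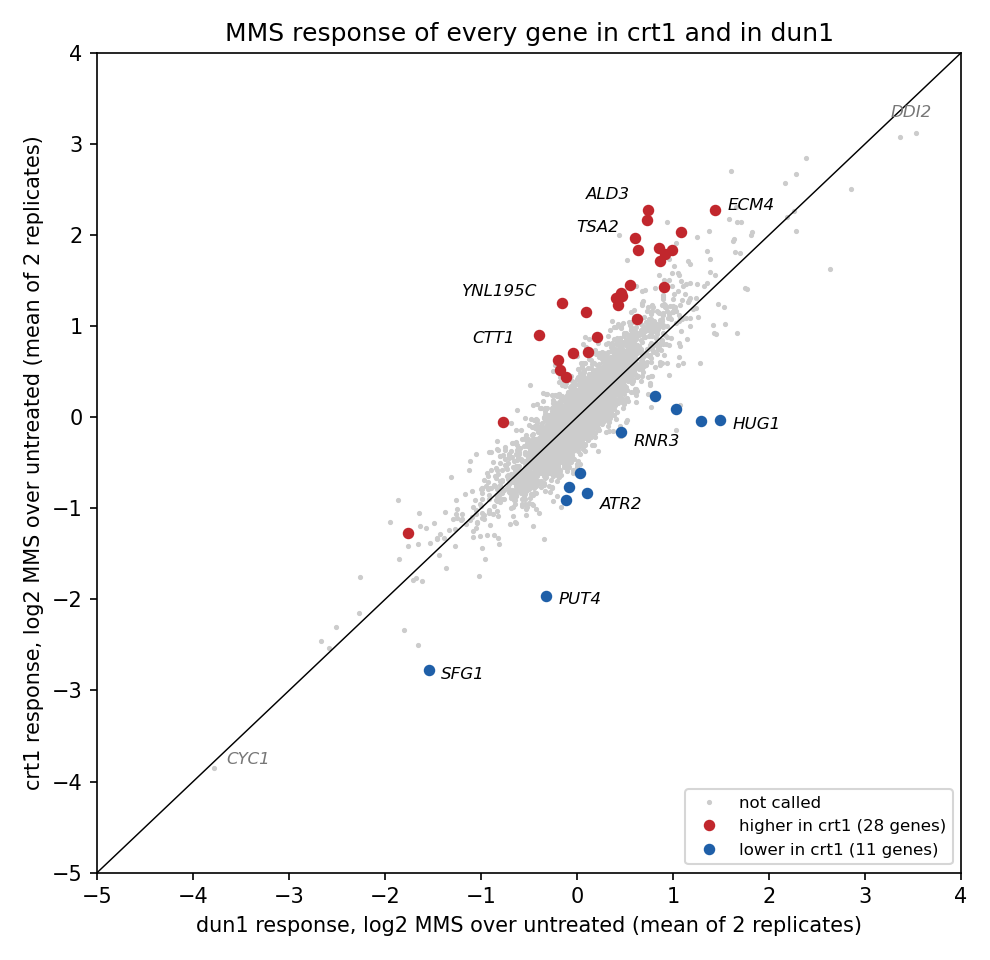
Response to MMS (log2 MMS over untreated, mean of 2 replicates) of 5594 genes in crt1 (vertical axis) and dun1 (horizontal axis), with equal responses on the line. Red points are the 28 genes called higher in crt1 and blue points the 11 called lower, and most other genes lie along the line.

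Among 4 genes that Crt1 represses, HUG1 and RNR3 had no called response to MMS in crt1 cells and rose in dun1 cells. The difference was called for these 2, both lower in crt1, beside 0.197% of all genes, and not for RNR2 and RNR4. All 4 had a negative difference, beside 2737 of 5594 genes. Their median was -0.95, beside 0.00 over all genes, and -1.18 without the array in doubt. In crt1 none of the 4 responses was called, and in dun1 2 of 4 were called higher, beside 26.7% and 21.8% of all genes. The median response of the 4 was -0.05 in crt1, 0.90 in dun1, 0.91 in chk1dun1 and 3.08 in wild type. The fifth gene of the list, RFX1, is deleted in crt1 and is left out of these counts. These targets were known from the literature and from earlier results of these data, so their direction is no independent evidence. HUG1 and RNR3 stayed called with any 1 replicate left out.

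HUG1 (YML058W-A) encodes a small protein that binds and restrains ribonucleotide reductase. Its response was -0.05, 0.06, -0.0013 and -0.15 on the 4 crt1 arrays, and 1.54, 1.49, 1.11 and 1.83 on the 4 dun1 arrays. The crt1 arrays lay around 0 and the dun1 arrays all above them. The means were -0.03 ± 0.06 in crt1, 1.49 ± 0.03 in dun1, 0.92 ± 0.17 in chk1dun1 and 4.07 ± 0.11 in wild type (SD, n = 2 each). The difference of -1.53 (95% interval -1.81 to -1.24, limma's adjusted p 3.16e-06), a 2.88-fold weaker response in crt1, was -1.71 without the array in doubt.

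RNR3 (YIL066C) encodes a large subunit of ribonucleotide reductase that is made chiefly after damage. It read -0.18, 0.04, 0.06 and -0.09 on the crt1 arrays, and 1.57, 1.46, 0.72 and 1.40 on the dun1 arrays. Here too no crt1 array reached the lowest dun1 array, which was the array in doubt. The means were -0.04 ± 0.04 in crt1, 1.29 ± 0.32 in dun1, 0.97 ± 0.06 in chk1dun1 and 4.24 ± 0.07 in wild type (SD, n = 2 each). The difference was -1.33 (95% interval -1.64 to -1.02, limma's adjusted p 3.77e-05) with all arrays and -1.50 without the array in doubt. Both Dun1-deficient strains thus held responses of RNR3 and HUG1 between those of crt1 and wild type.

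RNR2 and RNR4 encode the small subunit of the enzyme. RNR4 read -0.06, -0.06, -0.07 and -0.03 on the crt1 arrays, and 0.70, 0.48, -0.17 and 1.02 on the dun1 arrays. The array in doubt lay just below every crt1 array, and the other 3 dun1 arrays lay above all of them. Its difference of -0.56 had a 95% interval of -1.45 to 0.32 (limma's adjusted p 0.684), and was -0.86 without that array (adjusted p 0.453). The RNR4 replicates had SDs of 0.01 in crt1 and 0.12 in dun1 (n = 2 each). The width of its interval thus came mainly from other strains in the fit. RNR2 read -0.06, 0.05, 0.0071 and -0.60 in crt1, and 0.86, 0.56, -0.12 and 0.01 in dun1. The values of the 2 strains overlapped, and the difference was -0.48 (95% interval -1.06 to 0.10, adjusted p 0.566). In wild type RNR4 averaged 2.09 ± 0.21 and RNR2 1.65 ± 0.41 (SD, n = 2).

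RFX1 (YLR176C), the gene of Crt1 itself, is listed because Crt1 represses its own promoter. The gene is deleted in crt1 cells, where its probe averaged -0.15 ± 0.08, against 0.37 ± 0.05 in dun1, 0.41 ± 0.09 in chk1dun1 and 0.67 ± 0.27 in wild type (SD, n = 2 each). A ratio near 0 within the crt1 strain does not check the deletion, and with no gene to respond in crt1 the difference is no measure of its regulation. It was -0.52 with all arrays (limma's adjusted p 0.0633) and -0.61 without the array in doubt (adjusted p 0.020).

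**Figure D2:**
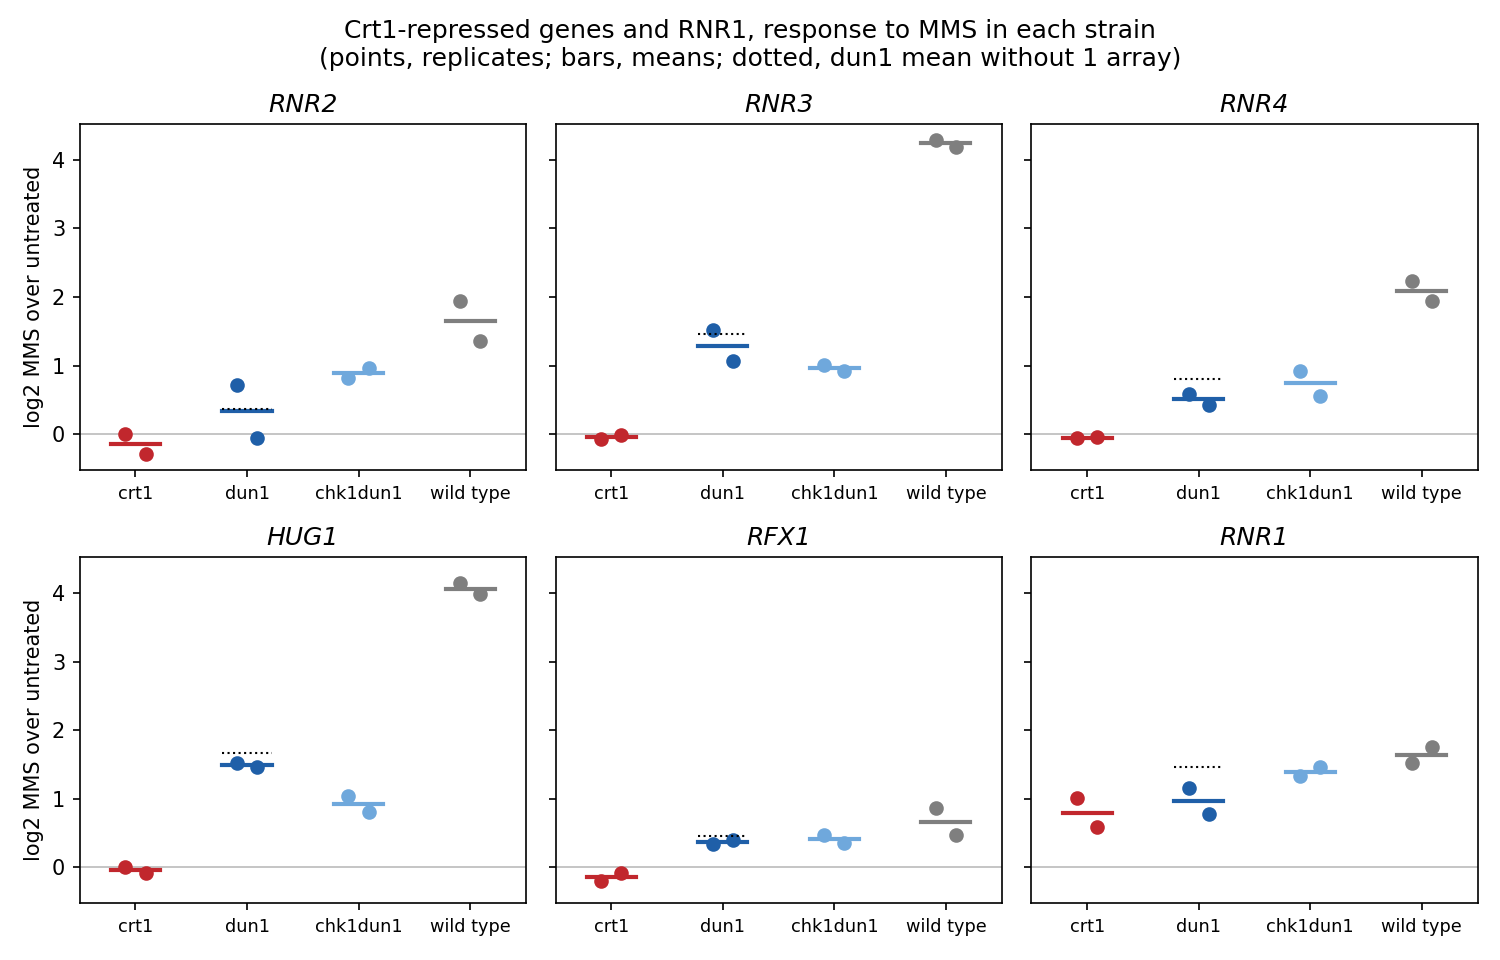
Response to MMS (log2 MMS over untreated) of 5 Crt1-repressed genes and RNR1 in crt1, dun1, chk1dun1 and wild type. Points are the 2 replicates, bars their mean, and the dotted line the dun1 mean without the array in doubt. HUG1 and RNR3 lie near 0 in crt1, near 1.49 and 1.29 in dun1 and above 4 in wild type.

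RNR1, the main large subunit gene, is driven by the G1/S factor MBF and not by Crt1. It responded in both strains, with 0.80 ± 0.29 in crt1, 0.96 ± 0.27 in dun1 and 1.64 ± 0.17 in wild type (SD, n = 2 each). It read 1.13, 0.88, 0.75 and 0.43 on the crt1 arrays, and 1.44, 0.87, -0.23 and 1.78 on the dun1 arrays, the array in doubt lying lowest. The difference was -0.17 (95% interval -0.65 to 0.32) and moved to -0.67 without that array, with limma's adjusted p at 0.833 and 0.271. The other regulators of the enzyme were not called. Their differences were -0.42 for DIF1, which drives import of the small subunit into the nucleus, 0.16 for the inhibitor SML1, 0.16 for WTM1, a nuclear anchor of the small subunit, and 0.17 for its paralog WTM2.

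Outside that list, 9 genes responded lower in crt1, among them the transporter genes PUT4, AMF1 and ENB1. PUT4 (YOR348C), the high-affinity proline permease, read -2.12, -2.12, -1.38 and -2.22 on the crt1 arrays, and -0.47, -0.81, 0.24 and -0.27 on the dun1 arrays. All crt1 arrays lay below all dun1 arrays. It averaged -1.96 ± 0.22 in crt1, -0.33 ± 0.44 in dun1, -0.50 ± 0.07 in chk1dun1 and -0.49 ± 0.29 in wild type (SD, n = 2 each). The difference of -1.63 (95% interval -2.11 to -1.16, limma's adjusted p 0.000443) was the largest in size of the 39 called with all arrays. Without the array in doubt it was -1.51, and no longer the largest.

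ATR2, a paralog of the drug exporter gene ATR1, read -1.20, -0.84, -0.13 and -1.15 on the crt1 arrays, and 0.23, -0.10, -0.10 and 0.40 on the dun1 arrays. It averaged -0.83 ± 0.27 in crt1, 0.11 ± 0.06 in dun1, 0.05 ± 0.08 in chk1dun1 and 1.38 ± 0.21 in wild type (SD, n = 2 each). The gene thus fell with MMS in crt1 and rose in wild type, and its difference between crt1 and dun1 was -0.94 (limma's adjusted p 0.0011), or -1.06 without the array in doubt. YPR015C read 0.17, 0.17, 0.07 and -0.02 in crt1, against 1.17, 1.06, 0.45 and 1.45 in dun1. Its means stood in the same order as those of HUG1 and RNR3, at 0.10 in crt1, 1.03 in dun1, 0.76 in chk1dun1 and 1.57 in wild type, with a difference of -0.93 (adjusted p 0.00285), or -1.18 without the array in doubt.

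SFG1, a transcription factor of pseudohyphal growth, fell in every strain shown, to -2.78 ± 0.68 in crt1, against -1.55 ± 0.46 in dun1 and -2.24 ± 0.47 in wild type (SD, n = 2 each). Its difference was -1.23 (limma's adjusted p 0.0264). GUP2, a gene linked to glycerol transport, and AMF1, an ammonium transporter gene, averaged -0.91 and -0.77 in crt1, against -0.11 and -0.08 in dun1, with differences of -0.80 and -0.69. ENB1, which encodes the carrier of ferric enterobactin, responded with 0.24 in crt1 against 0.81 in dun1, a difference of -0.58. It was the 1 called gene of 21 in the iron list, beside 0.197% of all genes called lower. IRC19 and YDL085C-A had differences of -0.63 and -0.64.

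Of the 11 genes lower in crt1, 9 were called higher with MMS in wild type, beside 26.8% of all genes. In crt1 itself 6 of the 11 fell, 1 rose and 4 were not called, beside 23.9% of all genes lower and 26.7% higher. In dun1 5 rose, 1 fell and 5 were not called, beside 21.8% of all genes higher and 18.1% lower. The median response of the 11 was -0.61 in crt1, 0.11 in dun1, 0.10 in chk1dun1 and 0.50 in wild type. The mean lay within 0.5 of the wild-type mean for 1 of the 11 in crt1 and for 6 in dun1. Tested against wild type, 9 of the 11 were called different in crt1 and 3 in dun1. All 11 kept their call without the array in doubt, and 10 had every crt1 array below every dun1 array, beside 0.858% of all genes. Without the array in doubt this held for all 11, beside 1.54% of all genes. The calls rest on the same values, so these shares add no separate test. Without crt1 replicate 2 the calls of 6 of the 11 were kept, without crt1 replicate 1 those of 8, without dun1 replicate 1 those of 9 and without dun1 replicate 2 those of 8. With the crt1 replicate 2 array with MMS in Cy3 left out, 7 kept their call, and with the array with MMS in Cy5 left out, 10 did.

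The 28 genes that responded higher in crt1 held 5 of the 29 genes in the list of general stress genes, beside 0.501% of all genes. The largest differences among the 28 were 1.53 for ALD3, an aldehyde dehydrogenase gene, and 1.44 for TSA2, a thioredoxin peroxidase gene. Next came 1.42 for YNL195C, 1.37 for its neighbour YNL194C, which encodes a protein of the plasma membrane, and 1.31 for CTT1, the cytosolic catalase gene. Of these, only ALD3 and CTT1 belong to the stress list. The mean response lay within 0.5 of the wild-type mean for 22 of the 28 genes in crt1 and for 7 in dun1. The share of all genes within that distance was not computed. Tested against wild type, the response was called different for 1 of the 28 in crt1 and for 12 in dun1. Their median was 1.32 in crt1, 0.46 in dun1, 0.41 in chk1dun1 and 1.10 in wild type. In crt1 26 of the 28 rose, beside 26.7% of all genes. In dun1 17 rose, 3 fell and 8 were not called, beside 21.8% of all genes higher and 18.1% lower. The 28 genes were picked by these same values, so the counts add no separate test.

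ALD3 (YMR169C) read 3.27, 2.15, 2.18 and 1.52 on the crt1 arrays, and 0.64, 0.58, 1.80 and -0.04 on the dun1 arrays. The array in doubt was the highest of dun1 and the only one that reached into the crt1 values. The means were 2.28 ± 0.61 in crt1, 0.74 ± 0.19 in dun1, 0.46 ± 0.11 in chk1dun1 and 1.71 ± 0.11 in wild type (SD, n = 2 each). The difference of 1.53 (95% interval 1.11 to 1.96, limma's adjusted p 0.000317), a 2.90-fold stronger response in crt1, was 1.99 without the array in doubt.

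CTT1 (YGR088W) read 1.02, 0.61, 1.28 and 0.73 in crt1, and -0.30, -0.50, 0.73 and -1.53 in dun1. The array in doubt again stood highest in dun1. CTT1 rose in crt1, by 0.91 ± 0.14, and fell in dun1, with a mean of -0.40, or -0.97 without the array in doubt. Both dun1 replicates averaged -0.40, but replicate 2 did so from arrays of opposite sign, 0.73 and -1.53. CTT1 averaged -0.28 ± 0.20 in chk1dun1 and 0.40 ± 0.28 in wild type (SD, n = 2 each). The difference was 1.31 (95% interval 0.97 to 1.64, adjusted p 0.000101 by limma) with all arrays and 1.87 without the array in doubt.

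TSA2 read 2.62, 1.94, 2.07 and 2.05 in crt1, and 1.18, 0.56, 1.06 and 0.12 in dun1, with no overlap. Its difference of 1.44 had a 95% interval of 1.14 to 1.74 (limma's adjusted p 1.15e-05) and was 1.67 without the array in doubt, and chk1dun1 and wild type averaged 0.84 and 1.90. YNL195C rose by 1.26 ± 0.35 in crt1 and averaged -0.16 ± 0.0026 in dun1, -0.02 ± 0.12 in chk1dun1 and 0.73 ± 0.27 in wild type (SD, n = 2 each). Its arrays read 1.31, 0.72, 1.94 and 1.07 in crt1, and -0.13, -0.19, -0.34 and 0.03 in dun1. The array in doubt was here the lowest of dun1, and the difference was 1.33 without it (adjusted p 0.000134). RTN2, a reticulon-like gene of the endoplasmic reticulum, read 2.08, 1.80, 1.44 and 2.05 in crt1, against 0.53, 0.51, 1.89 and -0.37 in dun1. Its difference was 1.20 with all arrays and 1.77 without the array in doubt, which was the highest of dun1 by more than 1 log2 unit.

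**Figure D3:**
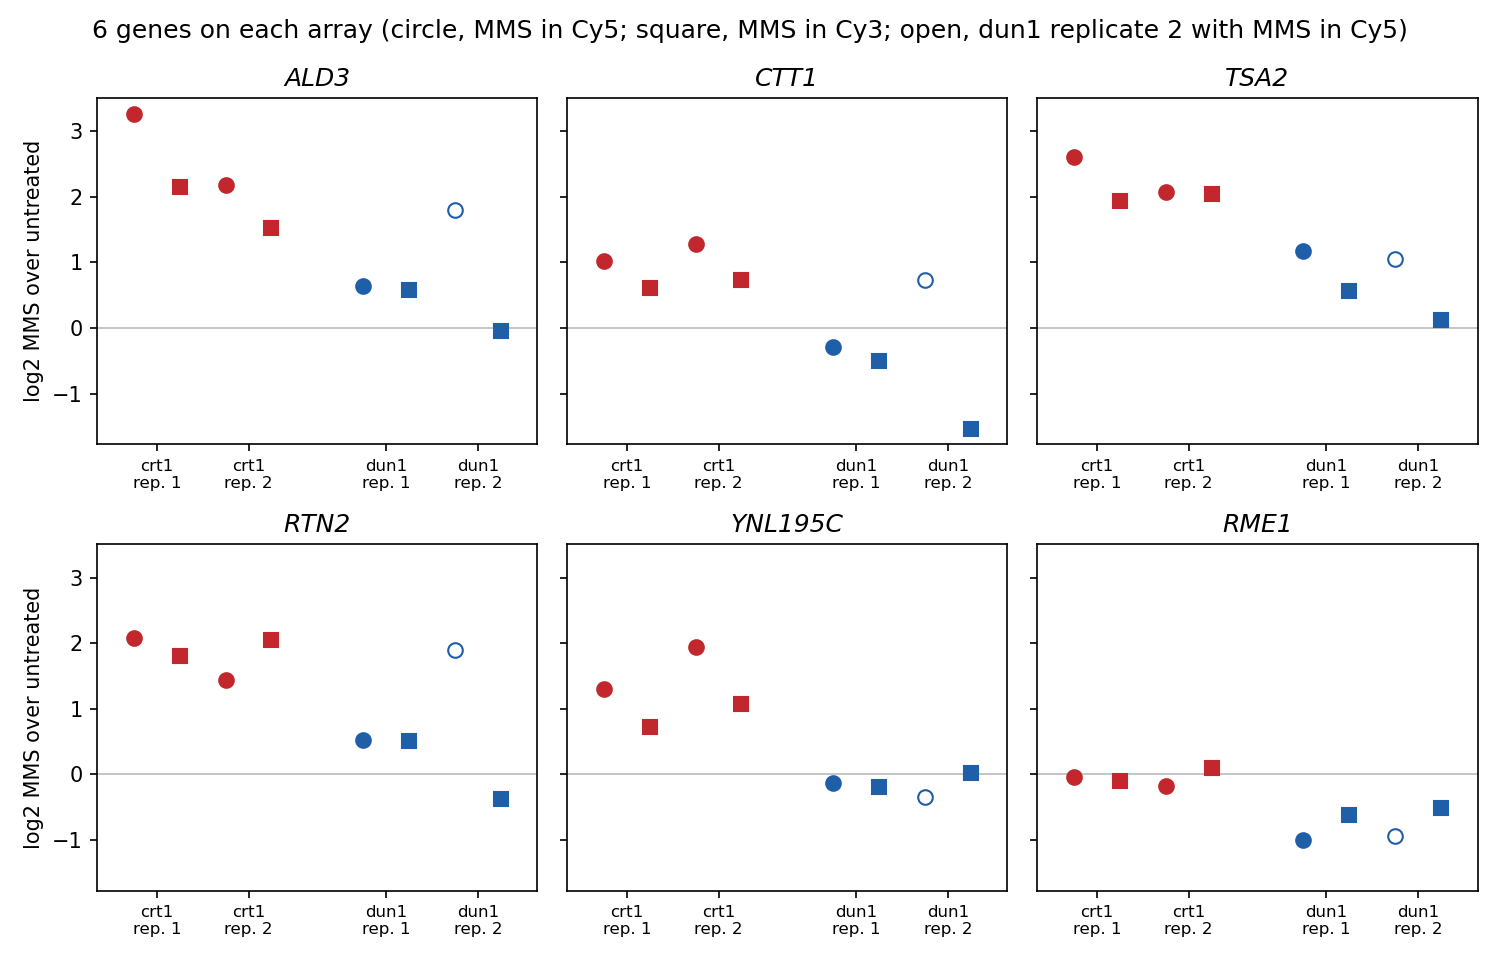
Response to MMS (log2 MMS over untreated) of 6 genes called higher in crt1, on each of the 4 crt1 arrays (red) and 4 dun1 arrays (blue). Circles have MMS in Cy5 and squares in Cy3, and the open circle is the array in doubt, which stands highest of dun1 for ALD3, CTT1 and RTN2.

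Of the other genes higher in crt1, GCY1, a glycerol dehydrogenase gene, responded with 1.86 in crt1 against 0.86 in dun1, NQM1, a transaldolase paralog, with 2.04 against 1.08, and STR3, a cystathionine beta-lyase gene, with 1.16 against 0.10. The differences of BDH2, FMP45, NNR2, PHM8, UIP4 and YJR096W lay between 0.85 and 0.91. BDH2 encodes a likely butanediol dehydrogenase, NNR2 a repair enzyme for hydrated NAD(P)H, PHM8 a phosphatase of the phosphate list and YJR096W an aldo-keto reductase. ECM4, a glutathione transferase gene, rose in both strains, by 2.28 ± 0.21 in crt1 against 1.44 ± 0.36 in dun1 (SD, n = 2 each). It was the 1 called gene of 22 in the Yap1 list, beside 0.501% of all genes called higher. DCS2, a regulator of messenger RNA decapping scavenging, rose by 1.84 in crt1 against 0.99 in dun1.

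A further 10 called genes lay outside the naming rule and are named after their values were seen. CIT2, DAK1, GND2, GPP2, MDH1 and NTH1 encode enzymes of central carbon metabolism, glycerol and trehalose, and TMA17 an assembly chaperone of the proteasome. YGR201C and the transporter gene YOR1 complete those with positive responses in crt1. RME1, a repressor of entry into meiosis, read -0.04, -0.10, -0.18 and 0.09 on the crt1 arrays, and -0.997, -0.62, -0.94 and -0.52 on the dun1 arrays. RME1 thus fell in dun1, by 0.77, with no call in crt1, and averaged -0.68 in chk1dun1 and -0.15 in wild type. It neighbours NQM1 on the genome, as YNL195C neighbours YNL194C. ASH1, a repressor of mating-type switching in daughter cells, fell in both strains, to -1.27 in crt1 against -1.76 in dun1.

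Of the 28 genes higher in crt1, 26 kept their call without the array in doubt, CIT2 and ASH1 being the exceptions, at adjusted p 0.13 and 0.117 by limma. Every crt1 array lay above every dun1 array for 12 of the 28 with all arrays, beside 1.68% of all genes, and for 24 without the array in doubt, beside 3.31% of all genes. Calls were kept for 11 of the 28 without crt1 replicate 2, for 17 without crt1 replicate 1, for 20 without dun1 replicate 1 and for 12 without dun1 replicate 2. Without the crt1 replicate 2 array with MMS in Cy5, 14 kept their call, and without the array with MMS in Cy3, all 28 did. Scaling all arrays to one spread kept 4 of the 28 calls and 6 of the 11 lower ones.

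**Figure D4:**
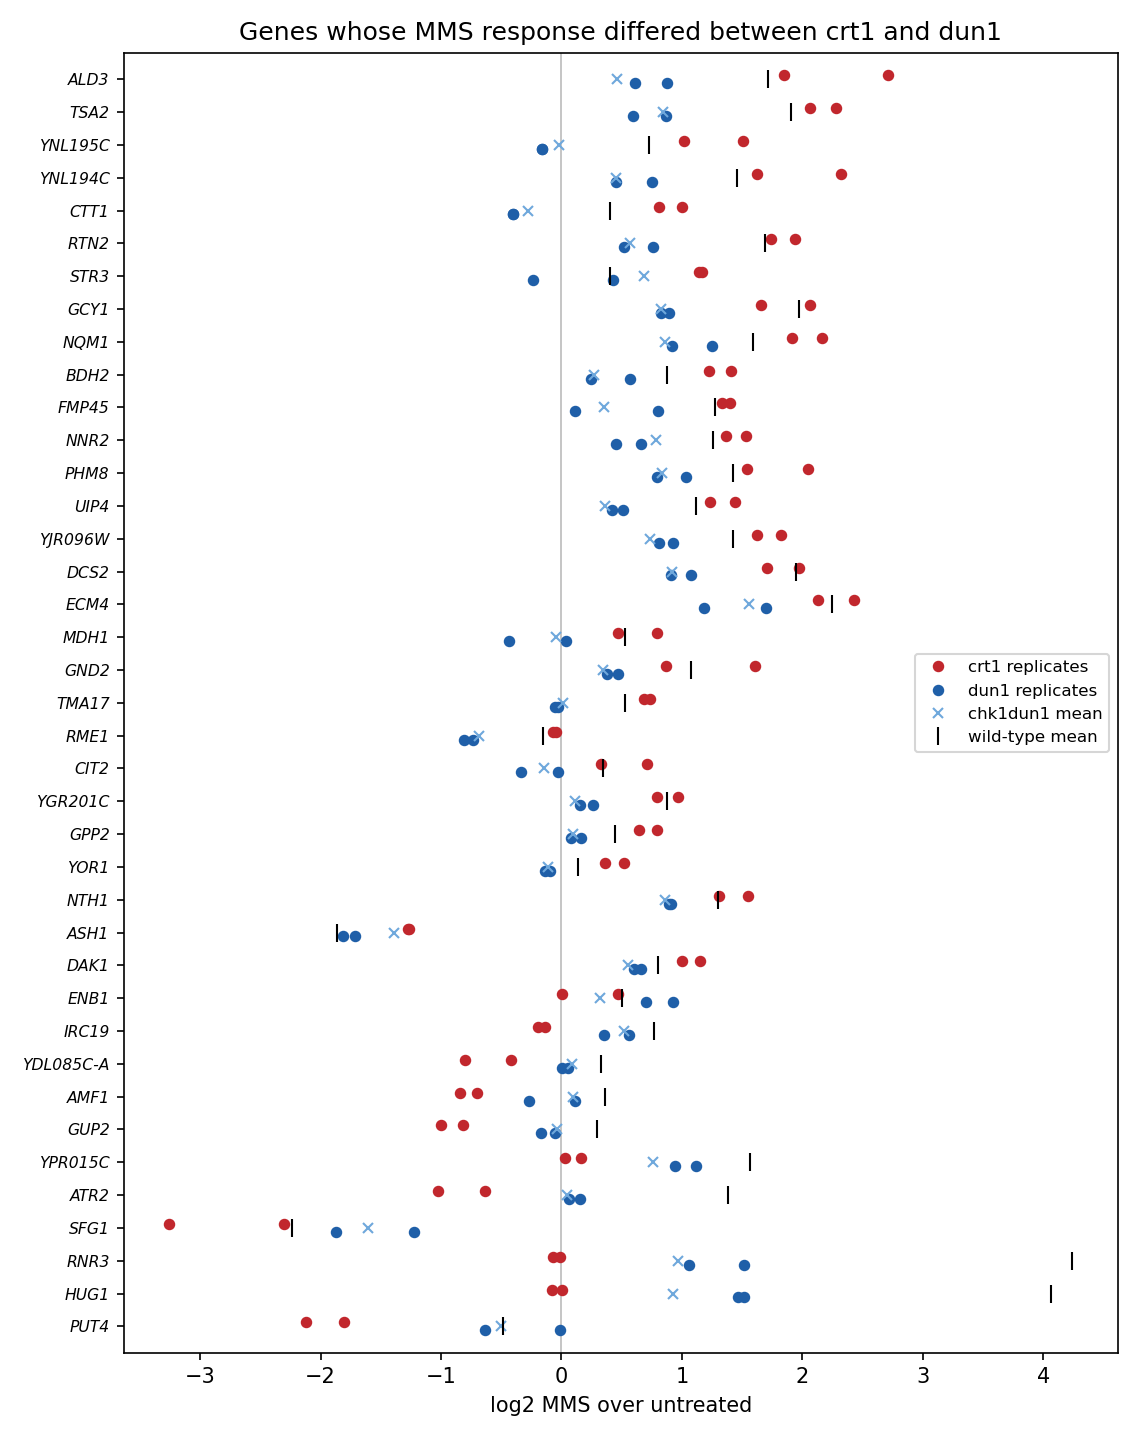
Response to MMS (log2 MMS over untreated) of the 39 genes called between crt1 and dun1, ordered by their difference. Red points are the 2 crt1 replicates, blue points the 2 dun1 replicates, crosses the chk1dun1 mean and black ticks the wild-type mean. For each gene both crt1 replicates lie beyond both dun1 replicates. The calls rest on these same values, so this adds no separate test.

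The general stress genes of the factors Msn2 and Msn4 were the list with most called members. Of 29 measured, 5 were called higher in crt1 (ALD3, CTT1, DCS2, GND2 and NTH1) and 0 lower, beside 0.501% of all genes called higher. The median response was 1.23 in crt1, 0.90 in dun1, 0.80 in chk1dun1 and 1.34 in wild type, and the median difference 0.33. In dun1 22 of the 29 still rose, beside 21.8% of all genes. Without the array in doubt 10 of 29 were called higher, beside 0.912% of all genes. The median difference was then 0.74, and 28 of 29 differences were positive, where 22 were positive with all arrays. Over all 5594 genes, 2839 were positive without the array in doubt and 2857 with all arrays. Arrays fitted singly with a dye term, again without that array, gave a median difference of 0.65. HSP12, a membrane heat shock gene of this list, had a difference of 0.10 with all arrays and of 1.10 without that array, uncalled in both. It lies outside the naming rule and was named after its values were seen. With other samples left out, 5 were called higher without crt1 replicate 1, 3 without crt1 replicate 2, 3 without dun1 replicate 2, and 2 without dun1 replicate 1, where 1 was called lower. Scaled to one spread, 1 was called and the median difference was 0.127.

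With the array in doubt left out, 31 further genes were called, 25 higher in crt1 and 6 lower. The 25 include GAD1, GPH1, FMP16, MSC1 and SOL4 of the general stress list. GAD1, which encodes glutamate decarboxylase, averaged 1.71 in crt1 and 1.16 in dun1, or 0.62 in dun1 without the array, beside 1.90 in wild type. MSC1 averaged 1.92 in crt1 and 1.03 in dun1, or 0.43 without the array, and 1.92 in wild type. SPS100, a spore wall gene, had a difference of 1.56 with all arrays at an adjusted p of 0.0633 by limma, and averaged 2.0 in crt1, 0.44 in dun1 and 1.5 in wild type. CYT1, the cytochrome c1 gene, averaged -1.05 in crt1 and -1.65 in dun1, or -1.83 in dun1 without the array. DUN1 is also among them, at 1.43 in crt1 and -0.14 in dun1 without the array, where the gene is deleted. The 6 lower genes include RFX1, deleted in crt1, FSH3, a serine hydrolase gene, at 0.24 in crt1 against 0.61 in dun1, and HBN1 of the Yap1 list, at 0.11 against 0.77. These genes were named after their values were seen.

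Most lists held no called gene. Of the checkpoint genes 0 of 22 were called with all arrays, with a median difference of 0.01, and DUN1 was the 1 called without the array in doubt. RAD53, the effector kinase gene, rose in both strains, by 0.36 ± 0.01 in crt1 and 0.33 ± 0.24 in dun1 (SD, n = 2 each). MEC1 averaged -0.26 in crt1 and -0.83 in dun1, or -0.31 in dun1 without the array in doubt. The other checkpoint genes measured differed by between -0.28 for MRC1, a replication fork mediator, and 0.19 for CRT10. Of 40 DNA repair genes 0 were called, with differences from -0.39 for the translesion polymerase gene REV1 to 0.33. Of 28 G1/S genes of MBF 0 were called, and their median difference was 0.09 with all arrays and -0.08 without the array in doubt. POL30, the sliding clamp gene, rose in both strains, by 1.22 in crt1 and 1.00 in dun1.

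The 17 mitotic genes of the CLB2 cluster were called lower with MMS in 16 cases in crt1 and in 12 cases in dun1, beside 23.9% and 18.1% of all genes, with median responses of -0.95 in crt1, -0.63 in dun1 and -1.05 in wild type. The difference was negative for 17 of 17 with all arrays, with a median of -0.36, and for 13 of 17 without the array in doubt, with a median of -0.08. Over all 5594 genes, 2737 were negative with all arrays and 2755 without that array. HOF1, a cytokinesis gene, read -1.62, -1.76, -1.32 and -1.54 on the crt1 arrays, and -1.51, -1.37, 0.38 and -1.32 on the dun1 arrays, where the array in doubt stood alone above 0. None of the 17 was called either way. Of the 16 genes of cell separation at M/G1, ASH1 alone was called with all arrays, beside 0.501% of all genes called higher.

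The ribosome biogenesis genes, which yeast lowers under stress, had 49 of 50 differences below 0, beside 2737 of 5594 over all genes. Their median difference was -0.21, with 0 called. Genes of a list were read on the same arrays, so their signs are not separate observations. Their median response was -0.53 in crt1, -0.24 in dun1, -0.28 in chk1dun1 and -0.63 in wild type, and the response was called lower for 42 of 50 in crt1 and for 21 of 50 in dun1, beside 23.9% and 18.1% of all genes. The median difference lay between -0.37 and -0.08 over the alternatives. These ends came from leaving out the crt1 replicate 2 array with MMS in Cy3 or in Cy5. It was -0.10 with arrays scaled to one spread and -0.12 after quantile normalization. Ribosomal protein genes had a median difference of 0.01 over 129 genes, 0 of them called. In the respiration list 30 of 34 differences were positive, with a median of 0.20 and 0 called. Without the array in doubt 33 were, with a median of 0.30 and CYT1 called. Over all 5594 genes, 2857 differences were positive with all arrays and 2839 without that array. The list's median responses were -0.31 in crt1, -0.51 in dun1 and -0.28 in wild type.

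**Figure D5:**
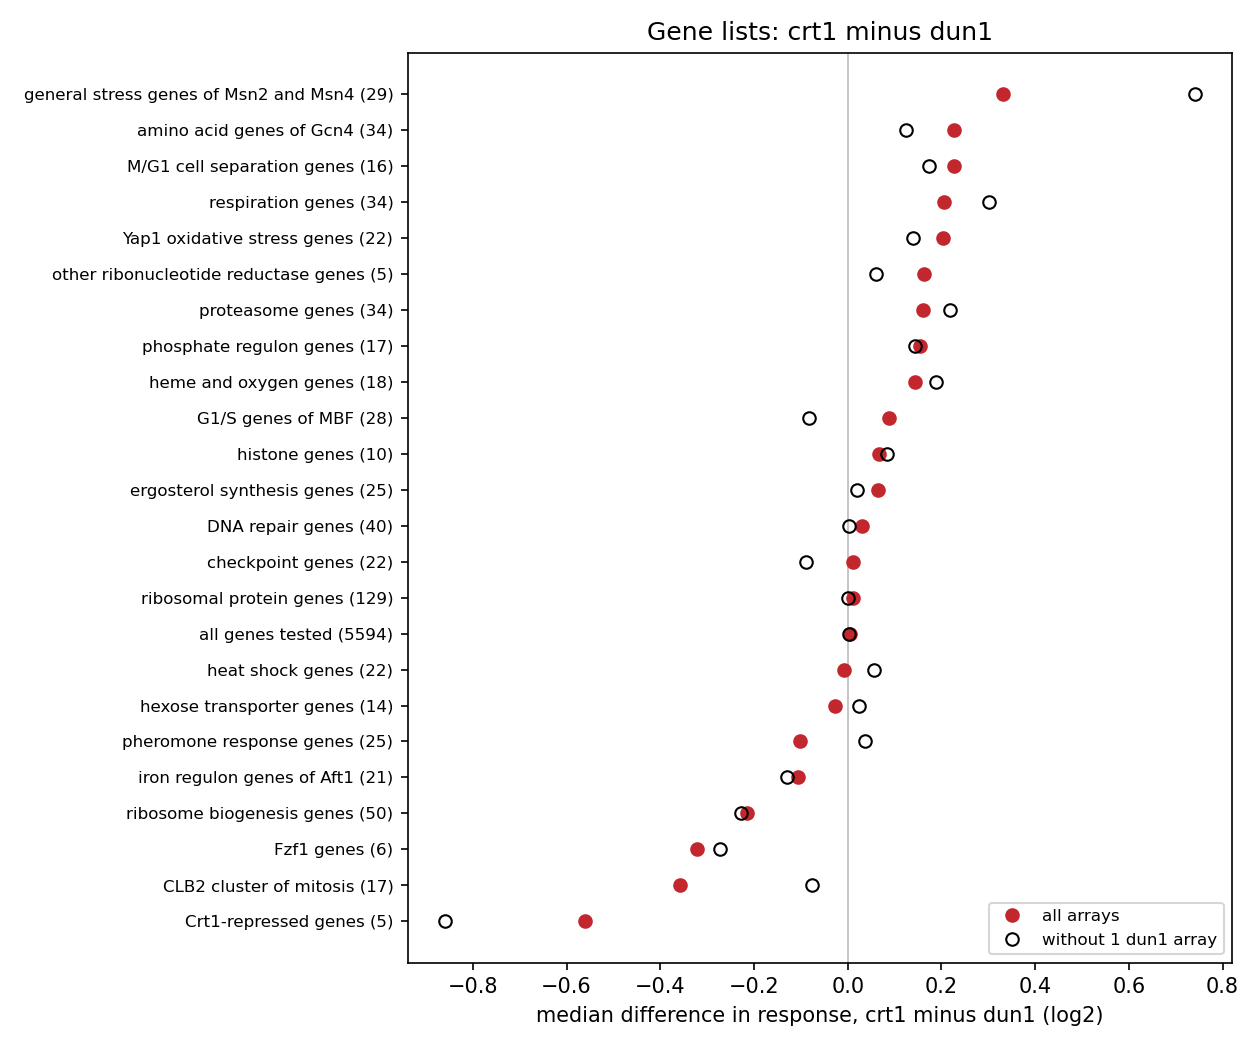
Median difference in response (crt1 minus dun1, log2) of each gene list, with the number of genes measured in brackets. Filled points use all arrays and open circles leave out the array in doubt; the 5 Crt1-repressed genes, here with the deleted RFX1, lie lowest, at -0.56 and -0.86, and the general stress genes highest, at 0.33 and 0.74.

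Of the Fzf1 genes, which respond to nitrosative and alkylating agents, 0 of 6 were called between the strains. In each strain 6 of 6 rose, beside 26.7% of all genes in crt1 and 21.8% in dun1. Median responses of the list were 2.27 in crt1, 2.75 in dun1 and 2.98 in wild type. YNR064C, an epoxide hydrolase gene, had the largest difference of the list, at 1.63 in crt1 against 2.64 in dun1 (difference -1.01, limma's adjusted p 0.337). The proteasome genes rose in both strains, 33 of 34 in crt1 and 34 of 34 in dun1, beside 26.7% and 21.8% of all genes, with a median difference of 0.16 and 0 called. Of the heat shock genes 17 of 22 rose in each strain, beside the same shares of all genes, with 0 called between them and a median difference of -0.01. The amino acid genes of Gcn4 had 0 of 34 called. ARG1 of that list read 2.55 to 2.85 on the crt1 arrays, and 3.71, 2.41, 0.14 and 0.15 on the dun1 arrays, split by replicate, and its difference was 1.10 (95% interval -0.43 to 2.63). The phosphate list (17) held PHM8 as its only called gene, beside 0.501% of all genes called higher. The histone (10), heme and oxygen (18), pheromone (25), hexose transporter (14) and ergosterol (25) lists held 0 called genes with all arrays. BAR1 of the pheromone list was called without the array in doubt. In each of those 5 lists the gene with the largest difference, HTA2, ANB1, PRM1, HXT4 and ERG3, had an adjusted p of at least 0.377 by limma.

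The chk1dun1 strain, which also lacks Dun1, sets the crt1 arrays against arrays that hold none of the dun1 samples. All chk1dun1 arrays, of both replicates, lay on a single slide without crt1 arrays. Slide and strain cannot be told apart in this comparison either. Both comparisons share the crt1 arrays, so the values stand side by side and no overlap was computed. Crt1 minus chk1dun1 was called for 53 genes (0.947%), 39 higher (0.697%) and 14 lower (0.25%). For HUG1 the difference was -0.96 and for RNR3 -1.01, and both were called, while RNR2 at -1.04 and RNR4 at -0.80 were not (limma's adjusted p 0.0897 and 0.512). PUT4 differed by -1.46 and ATR2 by -0.88. The differences were 1.82 for ALD3, 1.33 for TSA2, 1.28 for YNL195C, 1.27 for RTN2, 1.19 for CTT1 and 0.63 for RME1, all called. Other genes called between crt1 and dun1 had values here that missed the threshold: 0.12 for ASH1, 0.66 for CIT2, -0.09 for ENB1, 0.68 for MDH1 and 0.47 for STR3 (limma's adjusted p 0.716, 0.0548, 0.839, 0.0513 and 0.429).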

How the data were processed

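Per the labels, each array carried RNA of MMS-treated and untreated cells of one strain in Cy5 and Cy3. The authors deposited 1 normalized log2 ratio of Cy5 over Cy3 per probe, made with limma per the submitters' processing notes, with no version; base 2 is assumed, and the centring is not stated. Medians of the 8 arrays lay between -0.0109 and 0.0211. The sign was turned where Cy3 held the MMS sample. Of 6269 probes, 5620 had 1 gene symbol, 0 several and 649 none, giving 5594 genes; the probes of 25 genes were averaged. The 2 dye-swapped arrays of a replicate number gave 1 mean, in which a dye effect common to both drops out. This does not hold for dun1 replicate 2 where the array in doubt was left out.

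One mean per strain was fitted to 26 replicate values of 13 strains with limma 3.58.1 (lmFit, eBayes) in R 4.3.3, with 13 residual and 6.57 prior degrees of freedom, and p-values were adjusted by Benjamini-Hochberg over all genes. The scripts were tested on simulated data. The number of arrays limits the precision. Same-numbered replicates of crt1 and dun1 were not treated as paired in the main fit. Their deviations from the strain means correlated at r = -0.012, which with 2 replicates per strain cannot settle whether they were paired.

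Named were the 15 highest and 15 lowest called genes whose replicates did not overlap, all members of the Crt1, ribonucleotide reductase and checkpoint lists, up to 3 called members (or the largest difference) of each other list, and RFX1, DUN1 and MEC1. The strains, the 23 gene lists and the rule were chosen with earlier results of these data known. Some listed genes were not analysed here. A table of 20 arrays of 5 other strains was not used here.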

Additional observations from a re-analysis of the deposited data

Results flagged for a closer look

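The difference in response between the strains was tested directly and passed for 28 genes higher in crt1 and 11 lower. Among the named genes, 168 sets of 4 arrays were searched for an array far from the other 3, which chance alone marks in about 1 in every 20 sets. It marked 13, of which 4 each fell on the array in doubt and on the crt1 replicate 2 array with MMS in Cy5.

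On the array in doubt, labelled dun1, these were DUN1 at 2.71, MEC1 at -2.34, HOF1 at 0.38 and RAD53 at -0.19, where the other dun1 arrays of RAD53 lay between 0.44 and 0.55. On the crt1 replicate 2 array with MMS in Cy5 they were PUT4 at -1.38, REV1 at -1.58, against -0.67 to -0.64 on the other crt1 arrays, WTM1 at 0.21 and YDL085C-A at -1.24. On the crt1 replicate 2 array with MMS in Cy3 they were RNR4 at -0.03 and UIP4 at 0.99. On the crt1 replicate 1 array with MMS in Cy5 they were CHK1 at 0.25 and RFX1 at -0.36, and on the dun1 replicate 1 array with MMS in Cy5 DDC1 at -0.15.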

How the results depend on the processing

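The 39 calls between crt1 and dun1 were recomputed under 17 alternatives, 3 of them chosen after seeing the data. Of 663 values, 474 were still called, 189 were not and 0 changed sign. HUG1 stayed called in every alternative, and RNR3, CTT1 and YNL195C in all but the fit of the 2 strains alone. The count was 68 without the array in doubt, 82 without 3 single arrays (that one and an array each of mec1 and chk1rad53) and 59 without the crt1 replicate 2 array with MMS in Cy3. It was 90 with arrays fitted singly with a dye term and replicate as a random block, 64 in the same fit without the array in doubt, and 85 with slide as the random block. In all fits of single arrays the estimated correlation within a block was negative, at -0.196 for replicate and -0.114 for slide. Arrays of a block then weigh more than independent arrays would, so counts from these fits may run high. These fits are among the alternatives counted above. The count was 11 with arrays scaled to one spread and 1, HUG1, with the 2 strains alone in the fit. Leaving out one replicate each gave 21 to 132, with 92 without crt1 replicate 1, 21 without crt1 replicate 2, 132 without dun1 replicate 1 and 24 without dun1 replicate 2; the lone replicate is then assumed to vary like the other strains. With the replicate number as a block the count was 38, and 37 of the 39 kept their call. For the crt1 response, 1774 to 2217 genes were called with one replicate left out, beside 2831. For the dun1 response, 1244 to 1322 were called with one replicate left out and 1476 with the 2 strains alone, beside 2232. For crt1 minus chk1dun1, 13 to 159 were called with one replicate left out, 95 and 109 with arrays fitted singly (replicate or slide as block), 20 with arrays scaled and 28 after quantile normalization, beside 53. The cause of these shifts was not tested.

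Large dye differences were shared by 3 replicates of the table: the SD over genes of an array's distance from its dye pair's mean was 0.398 in crt1 replicate 2, 0.41 in ste11 replicate 2 and 0.395 in wild-type replicate 1, against 0.11 to 0.223 in the other 23.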
